A study of Mus musculus with 8 samples.

Results

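The genes described are the nuclear-encoded subunits of the oxidative phosphorylation complexes in primary astrocytes from neonatal mouse brain. They were chosen by name: every gene of the count table whose symbol begins with Ndufa, Ndufb, Ndufc, Ndufs, Ndufv, Uqcr, Cox4, Cox5, Cox6, Cox7, Cox8 or Atp5, and Sdha, Sdhb, Sdhc and Sdhd. Genes named Ndufaf, which are assembly factors, and Atp5s were left out. This gave 78 of the 13937 genes in the table, of which 36 belong by name to complex I, 4 to complex II, 8 to complex III, 14 to complex IV and 16 to complex V. Of these, 77 were among the 13509 genes with enough counts to be tested, and only Cox8c was not. None of the 13 mitochondrially encoded subunits is in the count table, so they were not analysed here.

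Oxidative phosphorylation is the production of ATP by the inner mitochondrial membrane. Complex I (NADH dehydrogenase) and complex II (succinate dehydrogenase) pass electrons to coenzyme Q, complex III (cytochrome bc1) passes them to cytochrome c, and complex IV (cytochrome c oxidase) passes them to oxygen. The proton gradient that complexes I, III and IV build up drives complex V, the ATP synthase. Astrocytes in culture are known to rely strongly on glycolysis but to keep a working respiratory chain, and TGF-β is a cytokine that changes astrocyte shape, matrix production and gene expression.

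The study asked how loss of RGC-32, a protein that acts in TGF-β signaling, changes the response of astrocytes to TGF-β. Brains of C57BL/6 pups on postnatal day 1, either WT or RGC-32 KO, gave the astrocytes, which were grown in serum, freed of loosely attached cells by shaking and starved of serum overnight. They were then left untreated or exposed for 24 h to TGF-β at 10 ng/ml. Each of the 4 groups, called WT control, WT TGF-β, KO control and KO TGF-β, holds 2 libraries of unstranded bulk RNA sequencing. The labels call the 2 libraries biological replicates, and the number of pups behind each, or which libraries share a litter, is not given in the sources used here. In bulk RNA, fewer cells of a type and less RNA per cell cannot be told apart.

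Total counts on genes ran from 14920561 to 18956038 per library. Rgcc, the gene of RGC-32, had 80 and 94 counts in WT control, 215 and 362 in WT TGF-β, 61 and 28 in KO control and 64 and 26 in KO TGF-β, so it was lower in the KO libraries but not at 0. All 10 astrocyte markers were detected, and their summed level ran from 3580 to 6000 CPM (counts of a gene per 1000000 counts of the library, the library total being scaled by the trimmed mean of M values, TMM). The 8 markers of meningeal fibroblasts, which also include matrix genes that TGF-β is known to induce, summed to between 4460 and 11600 CPM. Libraries of the same group differed for the subunits: KO control replicate 1 had the highest level of the 8 libraries for 40 of the 77 genes tested and the lowest for none, WT TGF-β replicate 1 the lowest for 29 and the highest for none, and KO control replicate 2 the lowest for 21.

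The promoters of respiratory subunits are known for binding sites of nuclear respiratory factor 1 (NRF1), of ETS-family factors such as GABPA, of YY1 and of estrogen-related receptors (ERR). RefSeq promoter windows (GRCm38.p6, 250 bases before to 50 after each start) were found for 64 of the 78 members. The letters of the NRF1 motif, CGCANGCGC on either strand, stood in 23 of these 64, or 35.9%, compared with 13.8% of the 10849 genes of the count table that have a window and 7.12% of all 27025 genes that have one. The ETS letters CCGGAAG stood in 25.0% of the members and 17.7% of the genes in the table, the YY1 letters AAGATGGCG in 10.9% and 3.09%, and the ERR letters AAGGTCA in 12.5% and 3.87%. At least 1 of the 4 motifs was found for 39 members, or 60.9%, compared with 33.0% of the genes of the table. By complex, the NRF1 letters were found for 9 of 32 members of complex I, 2 of 3 of complex II, 3 of 5 of complex III, 1 of 11 of complex IV and 8 of 13 of complex V. A match is a description of the letters and no evidence that the factor is bound.

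The windows of 30 bases shown next hold the NRF1 letters, in capitals, for the most abundant member of each complex that has a match. All are written 5′ to 3′ on the strand of the gene. The motif is shown because, of the 4 searched, it was found in the most members. In complex I it is Ndufb10 (chr17:24724430-24724459, minus strand), in complex II Sdha (chr13:74350318-74350347, minus), in complex III Uqcr10 (chr11:4704324-4704353, minus), in complex IV Cox6a1 (chr5:115349101-115349130, minus) and in complex V Atp5g3 (chr2:73911295-73911324, minus).
Ndufb10: ctgcccactaCGCAGGCGCagctgtcacct
Sdha: gtttacagggCGCAGGCGCaccaccactca
Uqcr10: ttgggttctaCGCAAGCGCagtggcgcgag
Cox6a1: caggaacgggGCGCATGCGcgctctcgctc
Atp5g3: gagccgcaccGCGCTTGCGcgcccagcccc
Sdha is also a gene that passed the test for a change after TGF-β given below. The other 7 genes that passed that test have no NRF1 letters in their windows, and of the 4 motifs only the ERR letters of Ndufb2 were found among them.

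The subunits were abundant, with a median of 63.1 CPM compared with 33.2 CPM over all genes tested, and together they made up 0.622% to 0.76% of the counts of a library. Levels of different genes were compared per transcript length, in FPKM (fragments scaled to transcript length and to the library total, as deposited). The median level was 59.8 FPKM over complex I, 70 over complex II, 95.5 over complex III, 122 over complex IV and 139 over complex V. The highest were Cox8a (315 FPKM) and Cox6a1 (314 FPKM), small membrane subunits of cytochrome c oxidase, and Cox4i1 (292 FPKM), a subunit through which ATP is known to regulate the same enzyme. Atp5b, the catalytic beta subunit of ATP synthase, followed at 289 FPKM. The highest in complex I was Ndufa4 at 233 FPKM, a protein named for complex I that is now known to belong to complex IV. Sdhc, a membrane anchor, led complex II at 109 FPKM and Uqcr10, a small subunit, led complex III at 153 FPKM. The lowest member apart from the tissue-restricted isoforms was Ndufa11, at 9.48 FPKM. Ndufa1 and Ndufb4c, which the name rule also covers, are in the FPKM table only, at 59.9 to 79.9 and 31.2 to 37.3 FPKM.

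Several subunits have a paralogue used in other tissues, and these showed which form the astrocytes expressed. Cox4i2, the lung and hypoxia form, was at most 0.161% of the summed FPKM of the Cox4i genes. Cox6a2, the heart and muscle form, was at most 0.116% of the Cox6a genes. Ndufa4l2, a hypoxia-induced relative of Ndufa4, was at most 0.141% of its pair. Cox8c, a testis form, had 3 counts in 1 library and 0 in the other 7. Cox7a1, the heart and muscle form, had 14 to 23 counts per library and made up 1.82% to 3.02% of the Cox7a genes. The exception was Cox6b2, known as a testis form, which reached 22% to 29.7% of the summed FPKM of Cox6b1 and Cox6b2. For the c ring of ATP synthase, whose genes encode an identical mature protein, Atp5g3 made up 41% to 43%, Atp5g2 40% to 43.7% and Atp5g1 13.9% to 17.4%. Reads that fit more than 1 gene of such a family, or a processed pseudogene, may be split in ways the counting does not state.

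On the count scale, few of these genes passed the test after TGF-β. In WT, 1 of 77 members was higher and 4 were lower at an adjusted p under 0.05 (edgeR quasi-likelihood test, Benjamini-Hochberg over all 13509 genes), whereas 18.6% of all genes tested were higher and 14.3% lower. In KO, 3 members were higher and 2 lower, against 16.6% and 11.8% of all genes. Thus 6.49% of the members passed in each genotype. Without overlap of the libraries, 41 of 77 members were lower and 6 higher in WT, against 33.7% and 35.4% of all genes. In KO 12 were lower and 9 higher, against 32.9% and 34.3%. The members share the same libraries, so these counts are no test over the members. With the fold threshold added (0.6 or more on the log2 scale, in either direction) no member passed, compared with 13.4% of all genes in WT and 11.5% in KO. The 95% confidence interval of the change lay within 0.6 of 0 on the log2 scale for 75 of 77 members in WT and 76 of 77 in KO. The exceptions were Cox7a1, at its low counts, in both genotypes and Cox6b2 in WT. The counts depend on the scaling: with upper quartile scaling 0 members were higher and 18 lower in WT, and 1 and 7 in KO, against a median of all genes of -0.090 in WT and -0.080 in KO. Over all genes, that scaling called 4801 of 13509 in WT and 4139 in KO, in either direction. On the FPKM scale many more members passed as lower in both genotypes, as given in the last section. There 5826 or 5818 of 13015 genes passed in WT and 5709 or 5689 in KO, by pseudocount. Leaving out 1 library at a time left 0 to 1 higher and 1 to 7 lower members in WT, and 0 to 5 and 0 to 2 in KO, with the 7 in WT and the 5 in KO reached without a KO control library.

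**Figure D1:**
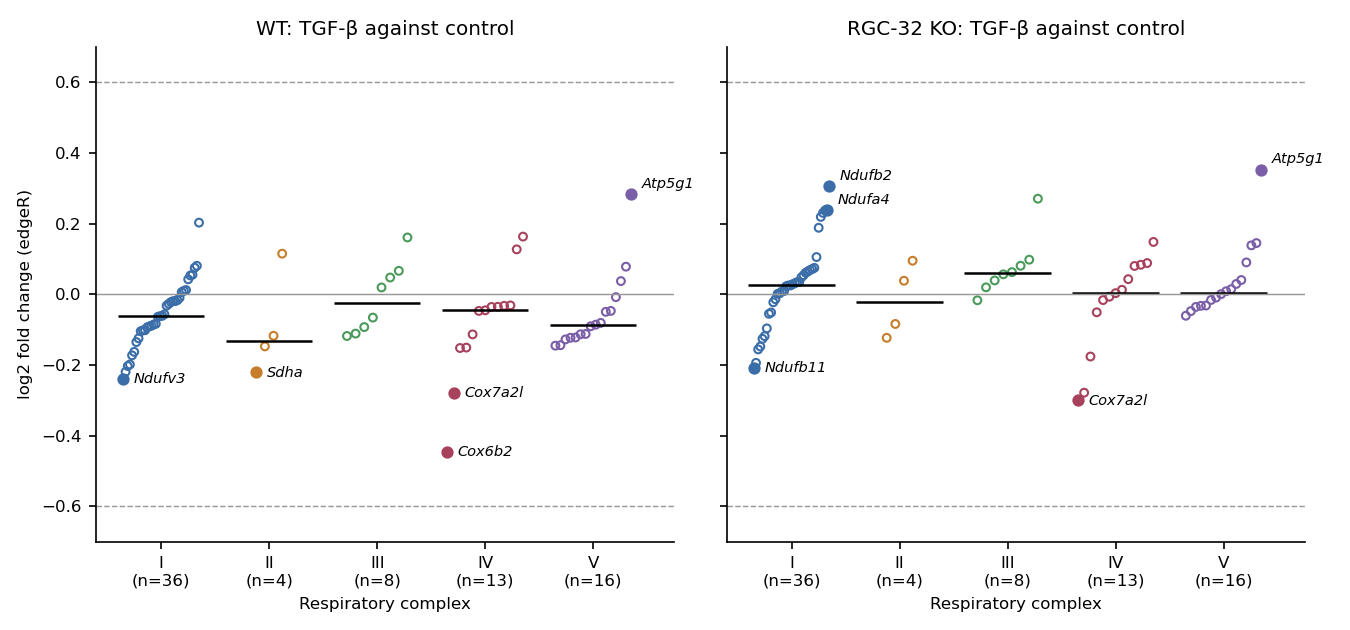
Each point is 1 subunit gene, placed by complex on the x axis and by its log2 fold change after TGF-β on the y axis, for WT (left) and RGC-32 KO (right). Filled, named points have an adjusted p under 0.05, black lines are medians and dashed lines mark 0.6 in either direction, which no member reaches.

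Atp5g1, a gene for the c subunit of the ATP synthase ring (chr11:96068852-96075670, mm10), rose in both genotypes. Its level was 46 and 42.7 CPM in WT control, 51.6 and 56.5 in WT TGF-β, 47 and 41.4 in KO control, and 56.4 and 56.5 in KO TGF-β. All 4 treated libraries were above all 4 untreated ones. Within a genotype, both treated libraries were above both controls for 35.4% of all genes tested in WT and 34.3% in KO. The log2 fold change was 0.28 ± 0.081 (SE, n = 2 per group, edgeR adjusted p = 0.0309) in WT and 0.35 ± 0.082 in KO (adjusted p = 0.0157). Its share of the summed FPKM of the Atp5g genes was 15.7% and 14.7% in WT control and 16.8% and 17% in WT TGF-β. In KO it was 13.9% and 14.2% in control against 17.4% and 16.8% with TGF-β, so the share was higher in every treated library. The call in WT was lost without WT control replicate 2, WT TGF-β replicate 2 or either KO TGF-β library (adjusted p 0.0514 to 0.211), and also with DESeq2 (0.119), edgeR on the 4 WT libraries only (0.0551), upper quartile scaling (0.0841) and the replicate block (0.0517). On the FPKM scale the change of Atp5g1 itself was 0.0045 in WT and 0.12 in KO and passed in neither. The higher share in WT thus came with almost no change in the FPKM of Atp5g1. The call in KO was lost without KO control replicate 2 or either KO TGF-β library (0.0703 to 0.0963). Atp5g2 was at 66.9 and 71.1 CPM in WT control and 63.5 and 64.2 in WT TGF-β, and Atp5g3 at 130 in both WT controls and 114 and 125 in WT TGF-β. Neither passed the test in either genotype.

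Cox7a2l, also called SCAFI (chr17:83501918-83517330), fell at the RNA level in both genotypes. It has been described as joining complexes III and IV into supercomplexes, and neither its protein nor supercomplexes were measured here. The values were 106 and 108 CPM in WT control, 94.2 and 81.9 in WT TGF-β, 113 and 109 in KO control, and 88.5 and 91.6 in KO TGF-β. The treated and untreated libraries did not overlap. Of all genes tested, 33.7% were lower without overlap in WT and 32.9% in KO, so this alone does not set a gene apart. The change was -0.28 ± 0.072 on the log2 scale in WT (SE, edgeR adjusted p = 0.0212), and in KO it was -0.30 ± 0.072 (adjusted p = 0.018). Without WT control replicate 1 or 2 or WT TGF-β replicate 2 the WT call was lost (adjusted p 0.0598 to 0.0916), as was the KO call without any 1 of the 4 KO libraries (0.0521 to 0.105). Within the Cox7a genes its share went from 64.7% and 65.5% to 61.6% and 60.6% in WT, and from 65.1% and 65.6% to 62.2% and 61.9% in KO. Cox7a2, the ubiquitous form, stayed between 43.6 and 51.2 CPM in all 8 libraries and did not pass the test.

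Cox6b2 had the largest change after TGF-β of any member (chr7:4751792-4753094). It was at 63.3 and 71.4 CPM in WT control, 47.4 and 51.5 in WT TGF-β, 58.8 and 52.4 in KO control, and 48.8 and 49.5 in KO TGF-β. The WT control libraries were the highest of the 8, and the treated libraries of both genotypes lay close together. The log2 fold change in WT was -0.45 ± 0.085 (SE, adjusted p = 0.00621), and this call held when any 1 library was left out. In KO the value was -0.18 (SE 0.086, adjusted p = 0.162; -0.44 on the FPKM scale, where it passed), and the difference between the genotypes in this response did not pass its own test (-0.27, SE 0.12, adjusted p = 1). Its share of the Cox6b transcripts was 28.1% and 29.7% in WT control, 25.7% in both KO controls and between 22% and 23.3% in the 4 treated libraries. Cox6b1, the general form, ran from 110 to 121 CPM and did not pass the test.

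Sdha, the flavoprotein of succinate dehydrogenase that oxidizes succinate (chr13:74322254-74350280), was the only member of complex II to pass the test. It was at 323 and 313 CPM in WT control and 272 and 274 in WT TGF-β, and at 321 and 319 in KO control and 290 and 298 in KO TGF-β. The treated libraries were lower in both genotypes without overlap, as for 33.7% of all genes in WT and 32.9% in KO. In WT the log2 fold change was -0.22 ± 0.054 (SE, edgeR adjusted p = 0.0171), against -0.12 ± 0.054 in KO (adjusted p = 0.125). The WT call was lost without any 1 of the 4 WT libraries (0.052 to 0.0855). Sdhc and Sdhd were also lower in WT without overlap, at -0.12 and -0.15, and did not pass (edgeR adjusted p = 0.115 and 0.188). In KO Sdhc was lower without overlap as well (-0.084, adjusted p = 0.254), and Sdhd overlapped. Sdhb, the iron-sulfur subunit, overlapped between control and TGF-β in both genotypes.

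Among the genes grouped by name as complex I, none of those that passed was a core subunit. Ndufv3, Ndufb11 and Ndufb2 are accessory subunits, which surround the catalytic core. Ndufa4 is counted here by name, though its protein is now known to belong to complex IV. Ndufv3, an accessory subunit of the NADH-binding arm, was at 45.2 and 47.1 CPM in WT control, 39.8 and 38.4 in WT TGF-β, 51 and 45.6 in KO control, and 40.9 and 43.5 in KO TGF-β. It fell in WT (log2 fold change -0.24 ± 0.074, SE, adjusted p = 0.0408) and was at -0.19 ± 0.074 in KO (adjusted p = 0.0866). Ndufb11, an accessory subunit of the membrane arm encoded on the X chromosome, was at 68 and 68.7 CPM in WT control, 62.4 and 62.1 in WT TGF-β, 75.3 and 70.9 in KO control, and 62.5 and 64 in KO TGF-β. It fell in KO (-0.21 ± 0.055, adjusted p = 0.026) and was at -0.14 ± 0.055 in WT (adjusted p = 0.0955). For both genes the treated libraries were below the untreated ones in each genotype, as for 33.7% of all genes in WT and 32.9% in KO. The Ndufv3 call was lost without any 1 of the 4 WT libraries or KO TGF-β replicate 1 (adjusted p 0.0586 to 0.163), and that of Ndufb11 without KO control replicate 1 or either KO TGF-β library (0.0827 to 0.139).

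Ndufb2 and Ndufa4 rose in KO on the count scale. Ndufb2, another accessory subunit of the membrane arm, was at 19.3 and 19.2 CPM in WT control, 23.1 and 21.2 in WT TGF-β, 21.2 and 19.9 in KO control, and 24.1 and 26.7 in KO TGF-β. The log2 fold change was 0.31 ± 0.089 in KO (SE, adjusted p = 0.0364; -0.033 on the FPKM scale) and 0.20 ± 0.089 in WT (adjusted p = 0.119). Ndufa4 was at 96.3 and 96.7 CPM in WT control, 97.1 and 103 in WT TGF-β, 104 and 91.9 in KO control, and 113 and 118 in KO TGF-β. The KO TGF-β libraries were the highest of the 8 in CPM, and the log2 fold change was 0.24 ± 0.070 in KO (adjusted p = 0.0382) and 0.053 ± 0.070 in WT (adjusted p = 0.593). In FPKM Ndufa4 was at 249 and 225 in KO control and 235 and 243 in KO TGF-β, which overlap. Its KO call was lost in 15 of the alternatives and held in 5. Both calls were lost without KO control replicate 2 (adjusted p 0.149 and 0.158), either KO TGF-β library (0.0611 to 0.246) or either WT TGF-β library (0.0575 to 0.061), that of Ndufb2 also without KO control replicate 1 (0.0641) and that of Ndufa4 without either WT control library (0.0537 and 0.0539). Neither gene passed the test of the difference between genotypes in this response. Ndufb2 and Ndufb11 share 156 and 117 exon bases with genes on the opposite strand (Gm16272 and Rbm10), whose reads cannot be separated in unstranded data.

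**Figure D2:**
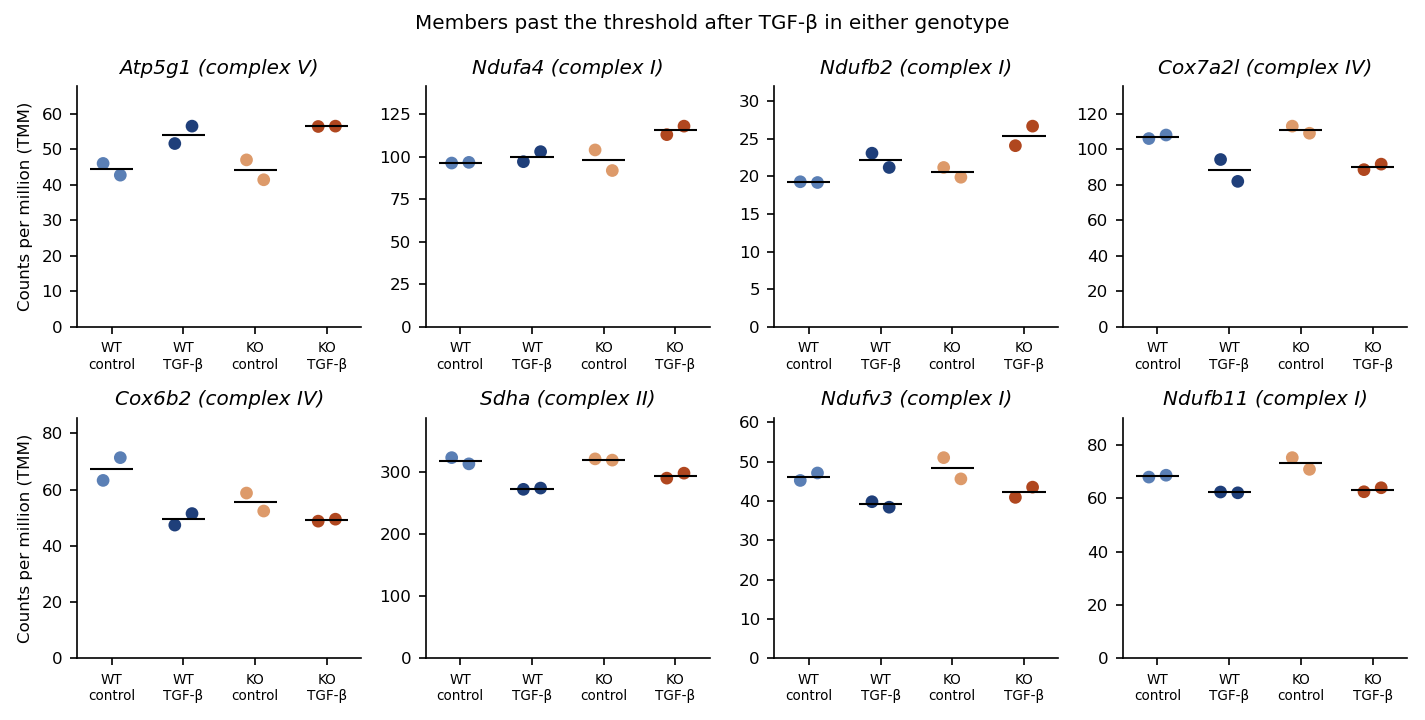
CPM (TMM-scaled, y axis from 0) of the 8 members that passed the test after TGF-β in WT or KO, with 1 point per library, 2 libraries per group, and black lines at group means. Atp5g1 is higher and Cox7a2l lower in every treated library, and Cox6b2 is highest in the WT control libraries.

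None of the 7 nuclear-encoded core subunits of complex I passed the test in any comparison, and their median log2 change after TGF-β was -0.057 in WT and -0.051 in KO. No member of complex III passed either. Over all 77 members, the median log2 change was -0.064 in WT, where all genes tested had a median of -0.0048, and 58 of 77 members were lower. In KO the median was 0.025 (all genes, 0.0031) and 27 members were lower. The WT medians were -0.061 in complex I, -0.13 in complex II, -0.023 in complex III, -0.045 in complex IV and -0.088 in complex V. In KO they were 0.027, -0.023, 0.060, 0.0034 and 0.0048 in the same order. Both medians move with single libraries. The KO median was 0.090 without KO control replicate 1 and -0.054 without KO control replicate 2, and ran from 0.0034 to 0.025 when another library was left out, with the lowest of these for KO TGF-β replicate 2. Leaving out WT TGF-β replicate 2 gave a WT median of -0.11, and leaving out replicate 1 of that group gave -0.045. Cell-type markers changed as well: from control to TGF-β the summed astrocyte markers went from 4620 to 4850 CPM to 3580 to 3700 in WT (7 of 10 lower, 1 higher) and from 5340 to 6000 to 4380 to 4720 in KO (6 lower, 1 higher). The fibroblast markers went from 5310 to 6660 CPM to 10100 to 11600 in WT and from 4460 to 4630 to 7880 to 7900 in KO, with 3 of 8 called higher in each and 2 called lower in WT and 1 in KO, and 7 of 9 ependymal markers were lower in each genotype. Their part in the changes of the subunits was not tested.

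**Figure D3:**
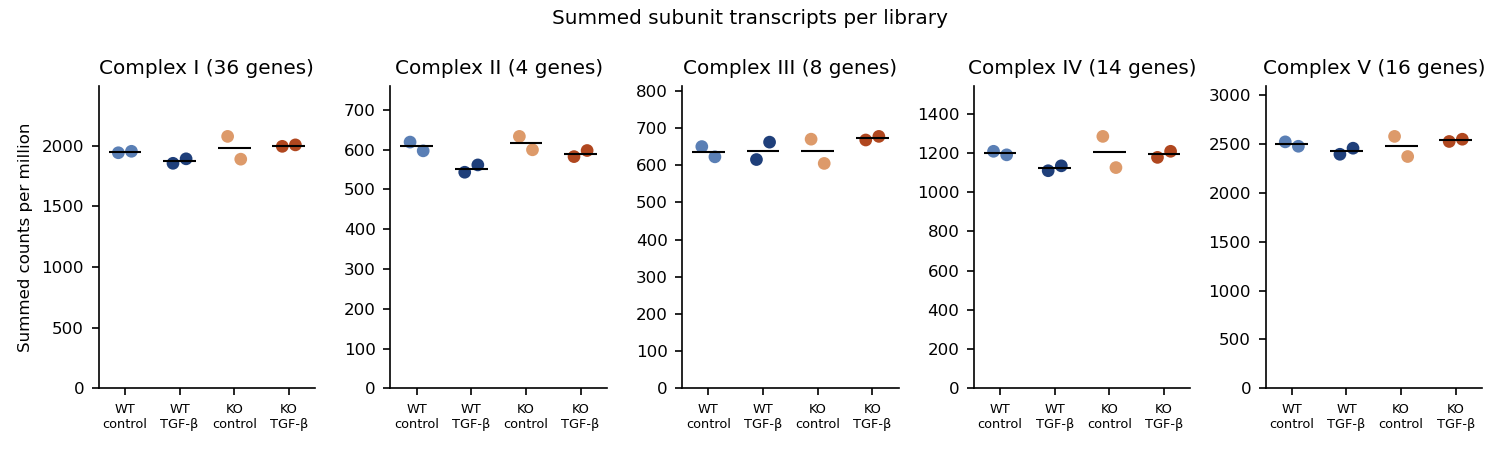
Summed CPM (TMM-scaled, y axes from 0) of the members of each complex, with 1 point per library and black lines at the means of 2 libraries. Complexes I, II, IV and V are lower in both WT TGF-β libraries than in both WT controls, complex III is not, and KO control replicate 1 is the higher of its pair in every complex.

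Summed over all members, the level was 6942 and 6843 CPM in WT control, 6518 and 6707 in WT TGF-β, 7243 and 6591 in KO control, and 6949 and 7041 in KO TGF-β. WT TGF-β was below WT control without overlap, while the 2 KO control libraries lay on both sides of KO TGF-β. The same held in WT for complex I (1943 and 1955 CPM in control, 1856 and 1893 with TGF-β), complex II (618.8 and 596.8, 543 and 561.4), complex IV (1208 and 1190, 1109 and 1134) and complex V (2522 and 2477, 2395 and 2457), while complex III overlapped (650.3 and 622.7, 615.4 and 662.2). As shares of the raw library total, without TMM scaling, the summed log2 ratio of TGF-β over control was -0.21 in WT and -0.11 in KO, so the direction in KO depends on the scaling. The members varied less than other genes: the median SD over the 8 libraries was 0.091 on the log2 CPM scale, compared with 0.17 for all genes tested, and within groups it was 0.074 compared with 0.098. They were also more abundant, at a median of 63.1 CPM compared with 33.2, and the SDs were not compared at matched levels.

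Between genotypes no member passed the test. Without TGF-β, 0 of 77 members were called and 0.037% of all genes, and with TGF-β 0 of 77 and 0.0518% of all genes (edgeR; 1 and 7 members had an unadjusted p under 0.05, and none passed in any of the alternatives run, DESeq2 and limma-voom included). Without TGF-β the median log2 difference of WT from KO was -0.013, and 46 of 77 members were lower in WT. The smallest p-values there belonged to Cox6b2 (0.28 ± 0.085, SE, adjusted p = 0.6), Ndufb11 (-0.097, adjusted p = 0.788), Atp5mpl, Ndufv1, Ndufc2 and Uqcr11, the last 5 all lower in WT.

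With TGF-β, nearly all members were slightly lower in WT than in KO. The log2 difference was below 0 for 73 of 77, with a median of -0.10 over the members and -3e-04 over all genes. The values above 0 included those of Ndufab1 (0.037), Cox6b2 (0.0077) and Cox7a1 (0.025). The shift was smaller on the FPKM scale, where 65 members were below 0. The median there was -0.052 or -0.053 over the members, by pseudocount, and -0.017 or -0.019 over all genes. For 50 of 77 members, or 64.9%, both WT TGF-β libraries were below both KO TGF-β libraries, compared with 23.9% of all genes tested, and for none were both above. By complex these were 25 of 36 in complex I, 3 of 4 in complex II, 4 of 8 in complex III, 7 of 13 in complex IV and 11 of 16 in complex V. The members share the same 4 libraries, so these counts describe the libraries and are not a test over 77 genes.

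The differences were small for each gene. Ndufa7, an accessory subunit of complex I, was at 54.4 and 52.4 CPM in WT TGF-β and 63.1 and 64.7 in KO TGF-β, a log2 difference of -0.26 ± 0.066 (SE, adjusted p = 0.219). In the untreated libraries it was at 60.4 and 62.2 CPM in WT and 67.1 and 60.5 in KO, which overlap. Ndufa2, an accessory subunit of the peripheral arm, was at 39.3 and 40.2 CPM in WT TGF-β and 49 and 44.5 in KO TGF-β (-0.23 ± 0.076, adjusted p = 0.307). Ndufb6 was at 32.6 and 33.1 CPM in WT TGF-β and 37.7 and 39.6 in KO TGF-β (-0.23 ± 0.083, adjusted p = 0.344). Ndufa4 (-0.21), Ndufs8, a core iron-sulfur subunit (-0.15), and Cox6c, a small subunit of complex IV (-0.19), were the others with the smallest p-values. In each of these 6 the WT libraries were below the KO libraries without overlap. The median was -0.11 for the 29 accessory subunits of complex I, which by name include Ndufa4, and -0.019 for its 7 core subunits.

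**Figure D4:**
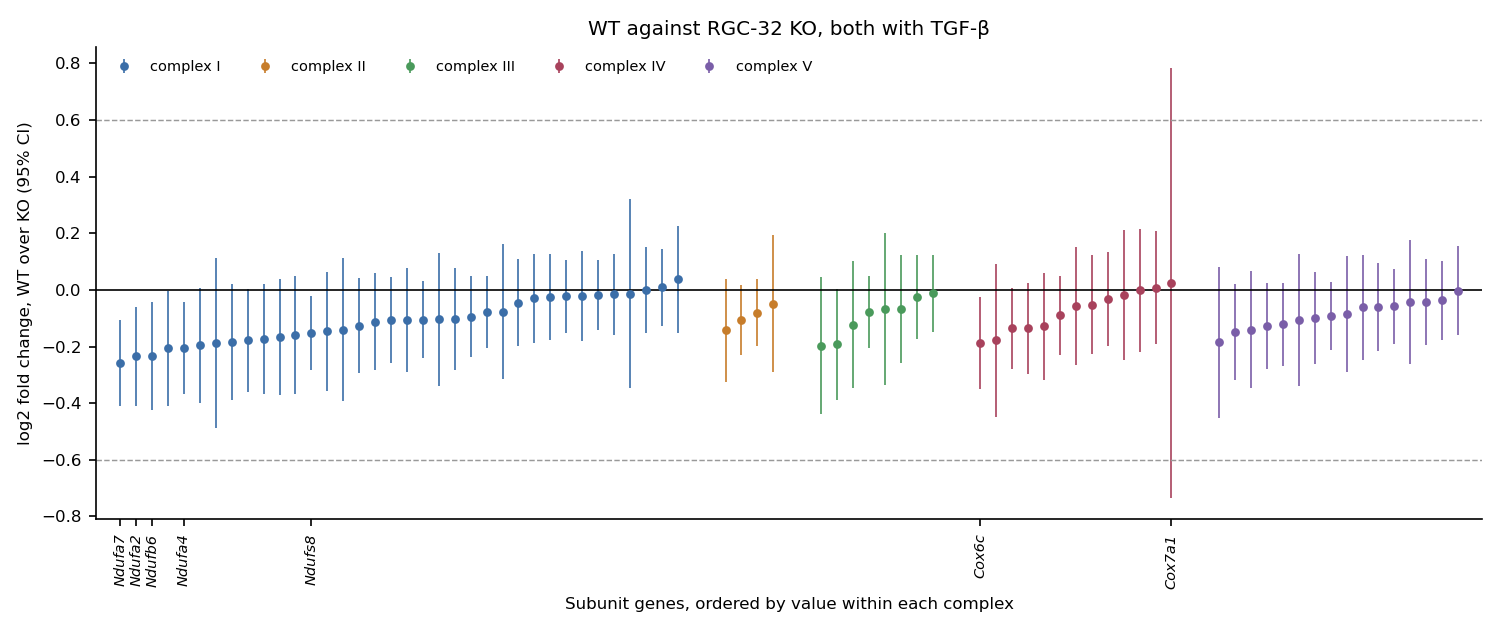
The y axis gives the log2 fold change of WT over RGC-32 KO, both with TGF-β, for each of the 77 subunits, ordered by value within complexes along the x axis, with the 6 smallest p-values and Cox7a1 named, with 95% confidence intervals from edgeR (2 libraries per group) and dashed lines at 0.6. All but 4 points are below 0, none passes the test after adjustment, and the wide interval is Cox7a1, with 14 to 23 counts per library.

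The genotype difference with TGF-β was smaller after a correction for length, counted as the exonic bases covered by any transcript of a gene. The members are short, with a median of 1631 exonic bases compared with 4451 over the genes of the count table that have a length. After a correction of each library for length, chosen after seeing the data, 53 of 76 members were lower in WT than in KO with TGF-β (median -0.052), and after TGF-β in WT 35 of 76 were lower (median 0.013, against -0.064 without the correction). Leaving out WT TGF-β replicate 1, the lower of its pair for the summed level, gave 59 of 77, and leaving out the other libraries gave 66 to 74. Cell-type markers also differed: with TGF-β the summed astrocyte markers were 3580 to 3700 CPM in WT and 4380 to 4720 in KO, and the fibroblast markers 10100 to 11600 in WT and 7880 to 7900 in KO. They differed in the same directions without TGF-β, where the members' median difference was -0.013. There the astrocyte markers were 4620 to 4850 in WT and 5340 to 6000 in KO, and the fibroblast markers 5310 to 6660 and 4460 to 4630. All 10 and all 8 markers of these lists were detected, and none passed the test between genotypes. The parts of length and of the cell types in the difference of the subunits with TGF-β were not tested.

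The test of the difference in response, the interaction of genotype and TGF-β, called 0 of 77 members and 0% of all genes (edgeR; 0 members and 381 of 13509 genes had an unadjusted p under 0.05, and DESeq2 called 0 as well). The median over members was -0.10 (all genes, -0.0085), and 62 of 77 were below 0, against 52.3% of all genes. This comparison uses the same libraries as those already given. With FPKM the members' median was 0.0055 and 36 members were below 0. On counts it was -0.013 without KO control replicate 2 and -0.17 without KO control replicate 1. The smallest p-values were those of Cox6b2, Ndufa7, Atp5f1 (-0.15), Ndufb6 (-0.23), Cox8a (-0.16) and Ndufa6 (-0.23), each with an adjusted p of 1. The interval of this difference was within 0.6 of 0 for 75 of 77 members.

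**Figure D5:**
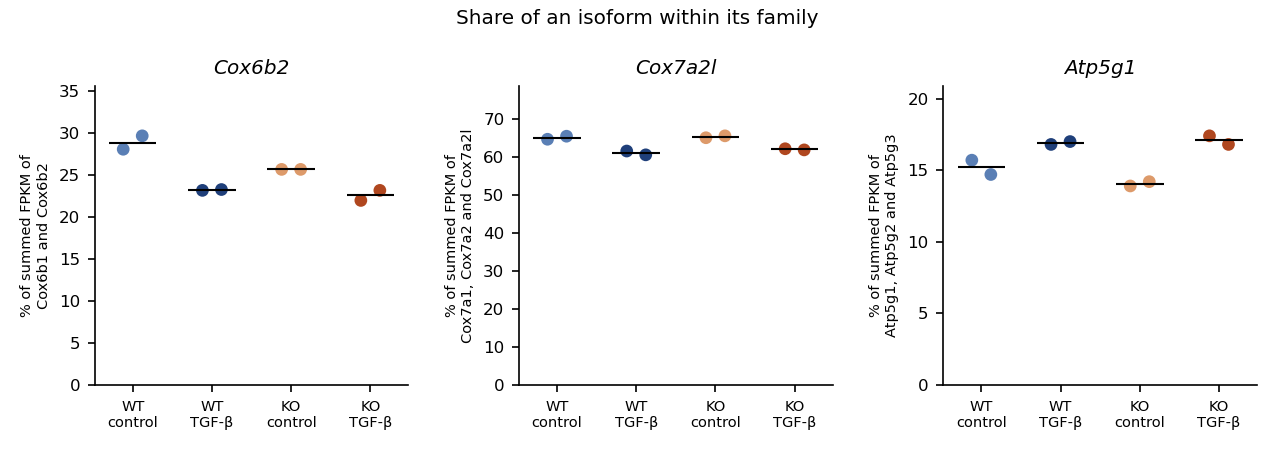
Share of Cox6b2, Cox7a2l and Atp5g1 in the summed FPKM of its family (y axes in percent, from 0), with 1 point per library and black lines at the means of 2 libraries. Cox6b2 and Cox7a2l have lower and Atp5g1 higher shares in the TGF-β libraries of both genotypes. A share also depends on the other genes of the family.

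Genes that serve the same system moved by similar or larger amounts in small numbers. After TGF-β, 32.9% of all genes tested were called in WT and 28.4% in KO, and the counts of each list stand beside these shares. Of 6 carriers and subunits outside the name rule, Cycs, which encodes cytochrome c, rose in both genotypes (0.38 ± 0.096 in WT, adjusted p = 0.0199, and 0.32 ± 0.096 in KO, adjusted p = 0.0417). It was at 43.7 and 40.5 CPM in WT control and 51 and 58.5 in WT TGF-β. Of 29 assembly factors tested, 1 rose and 4 fell in WT and 3 rose and 1 fell in KO. Ttc19, needed for complex III, rose in both (0.42 and 0.31), and Sdhaf4, which helps to assemble complex II, fell in both (-0.40 and -0.44). In WT, Ndufaf3 (-0.38) and Tmem126b (-0.37), both complex I assembly factors, also fell. In KO, Cox18 (0.47), which inserts a complex IV subunit into the membrane, and Tmem70 (0.38), which acts on ATP synthase, also rose.

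Of 13 enzymes of the tricarboxylic acid cycle, Mdh2, the mitochondrial malate dehydrogenase, rose in both genotypes (0.37 ± 0.075, adjusted p = 0.00814, and 0.39 ± 0.075, adjusted p = 0.00794). Idh3g (-0.33), Suclg2 (-0.31) and Suclg1 (-0.20) fell in WT. In KO these were at -0.11, -0.15 and -0.086 and did not pass, and none of the 3 passed the test of the difference between genotypes in this response (edgeR, adjusted p = 1 for each). Of 7 mitochondrial carriers and porins, only Slc25a3, the phosphate carrier, passed, in KO (0.26, adjusted p = 0.0364).

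Of 9 regulators of mitochondrial biogenesis tested, 2 changed, in opposite directions and in both genotypes. Over all genes the share called was 32.9% in WT and 28.4% in KO. Ppargc1a, which encodes the coactivator PGC-1α, was at 19.2 CPM in both WT controls and 13.5 and 13.2 in WT TGF-β, and at 18.7 and 20.2 in KO control and 12.7 and 12.2 in KO TGF-β. The log2 fold change was -0.52 ± 0.087 in WT (SE, adjusted p = 0.0038) and -0.65 ± 0.089 in KO (adjusted p = 0.00194). Pprc1, its relative PRC, went from 32.2 and 33.2 CPM to 52.2 and 56.2 in WT and from 33 and 34.9 to 49.2 and 44.4 in KO (0.73, adjusted p = 0.000527, and 0.46, adjusted p = 0.00417). The control and treated libraries of both genes were far apart compared with their spread. Of 8 hypoxia-response genes, Vegfa, the vascular growth factor, rose (1.15 in WT and 1.08 in KO), and Egln3, an oxygen-sensing prolyl hydroxylase, fell (-1.25 and -0.82), as did Bnip3 in WT (-0.31). No gene of these lists passed the test between genotypes.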

How the data were processed

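The authors aligned unstranded reads with STAR in the VIPER pipeline to mm10 and deposited whole-number counts per gene symbol, not normalized. The counting program is not given in the sources used here. They also deposited FPKM values ascribed to Cufflinks, used for levels between genes and as an alternative. The authors' DESeq tables (fold changes and p-values) were not used. Every column matched a sample's labels. The count analysis ran in edgeR 4.0.16 (R 4.3.3): filterByExpr, TMM scaling, 1 quasi-likelihood fit of 8 libraries with a mean per group and no block, two-sided tests and Benjamini-Hochberg adjustment over 13509 genes. SE was derived from the test statistic. The test was tried on simulated data. Alternatives used limma 3.58.1, DESeq2 1.42.0 and other filters, scalings and libraries.

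Positions come from GENCODE M21 (mm10), with 77 of 78 members matched (Atp5o was not), and 27 members share exonic bases with another gene. The p-values rest on the spread between libraries within groups of 2, pooled over the 4 groups and moderated across genes. The chi-square per degree of freedom between replicates ran from 6.28 to 10.4, above counting noise. Members and lists were chosen with earlier results of these data known, and so were the promoter motifs. The text names, for each complex, up to 4 members per direction that passed after TGF-β, all isoform pairs, the 6 smallest p-values in the other comparisons, the highest member by FPKM and up to 3 genes per direction of each related list. Other genes were named after their values were seen.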

Additional observations from a re-analysis of the deposited data

How the results depend on the processing

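Counts of called members moved with several settings. Higher after TGF-β in WT (1 member), 0 were called by DESeq2, by edgeR on the libraries of the comparison only, with upper quartile scaling, with the replicate block, with FPKM under either pseudocount and with the fold threshold of 0.6, 2 after the length correction, and 0 to 1 when 1 library was left out. Lower in WT (4 members), upper quartile scaling gave 18, both FPKM fits 34, the fold threshold 0, and leaving out 1 library 1 to 7. Higher in KO (3 members), DESeq2, the comparison's libraries only, upper quartile scaling and the replicate block gave 1 each, both FPKM fits and the fold threshold 0, the length correction 5, and leaving out 1 library 0 to 5. Lower in KO (2 members), DESeq2, the comparison's libraries only, the replicate block and the length correction gave 1, upper quartile scaling 7, both FPKM fits 31, the fold threshold 0, and leaving out 1 library 0 to 2. Over all genes, in either direction, the main fit called 4450 of 13509 in WT and 3835 in KO. Upper quartile scaling called 4801 and 4139, and DESeq2 2914 and 2472. The FPKM fits called 5826 or 5818 of 13015 genes in WT and 5709 or 5689 in KO, by pseudocount. FPKM moved the median of all genes by -0.11 to -0.13 after TGF-β, and the members' median was then -0.18 and -0.19 in WT and -0.18 in KO. The cause of these changes was not tested. Genotype and interaction calls were 0 in every alternative run.

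Of the named genes, Cox6b2 in WT passed in every alternative but the fold threshold (adjusted p 0.00122 to 0.0396). Atp5g1 in WT ranged from 0.00749 to 0.965, Ndufv3 from 0.0125 to 0.182 and Sdha from 0.000995 to 0.0855. The adjusted p of Cox7a2l was 0.0011 to 0.0916 in WT and, in KO, 0.00107 to 0.105. Ndufa4 in WT turned to -0.033 with upper quartile scaling and lay between -0.012 (without WT TGF-β replicate 2) and 0.098 when 1 library was left out, and Ndufb2 in KO to -0.033 and -0.034 with FPKM. Nothing in the labels ties equal replicate numbers together. The deviations of same-numbered libraries correlated at -0.34 in WT and -0.35 in KO between control and TGF-β, and at 0.49 without and 0.25 with TGF-β between genotypes, so the numbers were not taken as pairs. With the replicate block, 0 members were higher and 3 lower in WT, and 1 and 1 in KO. With the numbers crossed, a fit added after seeing the data, 1 was higher and 7 lower in WT, and 5 and 2 in KO, and 0 between genotypes under either block.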
